A study of Mesocricetus auratus with 8 samples.

Results

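Transcripts of 9 RNA-binding proteins that control splicing in heart muscle were followed through the hearts of 8 golden hamsters (Mesocricetus auratus). They were chosen by symbol, as the rows of the deposited count table named Rbm20, Rbm24, Mbnl1, Mbnl2, Celf1, Rbfox1, Rbfox2, Qki and Ptbp1, and all 9 were found among 20360 rows. Each library was polyA RNA from the heart of 1 female animal killed at 25 weeks of age. The series design states that the animals were wild type or had lost heterozygosity at Myh6, the alpha myosin heavy chain gene of the heart, and that they were sampled ahead of dilated cardiomyopathy. The labels name each animal by a code only (M5F56, M5F55, M5F22, M5F19, M5F16, M5F12, M5F7 and M5F5), so the genotype of every library is unknown here. Genotypes were therefore not compared, the libraries were not taken as replicates of a genotype, and values are given for each one. Only the tests of relations below take the 8 libraries as exchangeable, whatever their genotypes.

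Splicing regulators of striated muscle decide which exons enter the transcripts of the sarcomere and of calcium handling. Rbm20 represses exons of titin, and its mutation causes dilated cardiomyopathy in humans, while Rbm24 promotes the inclusion of muscle exons. The muscleblind proteins Mbnl1 and Mbnl2 drive adult splice patterns, and Celf1 favours fetal ones at many of the same exons. Rbfox1 and Rbfox2 bind introns beside tissue-specific exons, Qki is a KH-domain protein of muscle and glial splicing and RNA stability, and Ptbp1 represses muscle and neuronal exons. Counts per gene measure how much transcript each regulator had, not which exons were used, so splicing itself was not measured.

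Myh6 was not analysed here, because no row was matched to its symbol. Total counts ran from 13608500 to 15255764 per library, a ratio of 1.12. Values below are CPM, a count as a share of the library total after scaling by the trimmed mean of M-values (TMM). Because CPM is not corrected for transcript length, levels are compared between libraries and not between genes. All 8 cardiomyocyte markers examined had counts in every library, with a summed level of 47211 to 62274 CPM. M5F7 and M5F19 were extreme in many genes: among 10909 genes tested, M5F7 held the highest value of 17.7% and the lowest of 18.1%, and M5F19 the highest of 16.9% and the lowest of 14.98%. A first principal component over these genes took 40.7% of the variance and ordered the libraries as M5F7, M5F5, M5F55, M5F56, M5F22, M5F12, M5F16 and M5F19.

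Of the 9 members, 8 had a mean count of at least 50 and were tested for spread, and none of the 8 reached a 2-fold difference between its highest and its lowest library, though Rbfox2 came near at 1.90-fold. Over all genes tested, 1519 of 10909 (13.9%) reached 2-fold with an adjusted p under 0.05 (chi-square test of the counts against equal relative abundance, Benjamini-Hochberg over all genes tested). Against that share a count of 0 among 8 is no result about the members. With a mean count of at least 500, which all but Rbfox2 of the 8 had, 324 genes were counted among fewer tested. How many were tested at that limit is not given here, so 324 is not a share of the 10909. All 8 members differed between libraries beyond counting error, as did 86.4% of all genes tested, so this share says little about the members. Their median fold between the highest and the lowest library was 1.30, beside 1.45 for all genes tested. With both extreme libraries of a gene set aside, the medians were 1.18 and 1.252. These comparisons, and the shares of genes with a wider range given below, were not matched by mean count. Counting error alone widens the range of genes with few counts. The test and the 95% Poisson intervals cover counting error only, and without molecular identifiers reads cannot be counted as independent molecules.

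**Figure D1:**
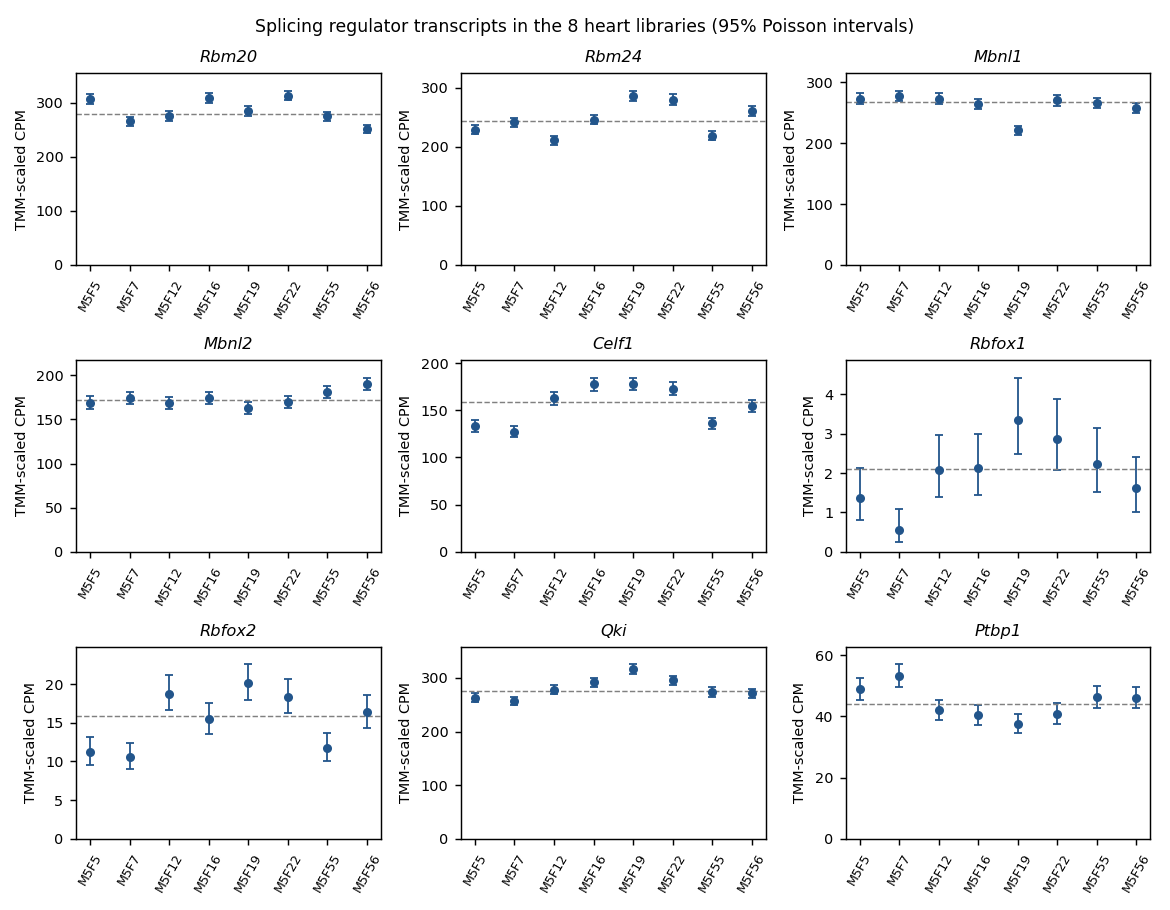
Level of each splicing regulator (vertical axis, TMM-scaled CPM from 0) in each of the 8 libraries (horizontal axis), with bars for 95% Poisson intervals and a dashed line at the median of the gene. Mbnl1 is low in M5F19 alone, Celf1 and Rbfox2 are low in M5F5, M5F7 and M5F55, and Rbfox1 ranges from 0.548 to 3.35 CPM with wide intervals.

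Rbm20, the titin splicing repressor, kept within a 1.246-fold range. It was at 313 CPM in M5F22, 309 in M5F16, 306 in M5F5, 285 in M5F19, 276 in M5F12, 275 in M5F55, 266 in M5F7 and 252 in M5F56. The intervals of neighbouring libraries in this order were apart only between M5F5 and M5F19, so M5F22, M5F16 and M5F5 lay above the other 5 libraries. Of all genes tested, not matched to Rbm20 by mean count, 82.6% had a wider range (adjusted p = 4.1e-34 for Rbm20 by the chi-square test).

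Rbm24, which supports sarcomere gene splicing in mouse heart, spanned 1.36-fold. Its level was 286 CPM in M5F19, 280 in M5F22, 260 in M5F56, 246 in M5F16, 241 in M5F7, 229 in M5F5, 219 in M5F55 and 211 in M5F12. M5F19 and M5F22 stood above the rest, with non-overlapping intervals between M5F22 and M5F56. Rbm24 and Rbm20 did not share their order: M5F5 was the third-highest library for Rbm20 and the sixth for Rbm24, and M5F56 was the lowest for Rbm20 and the third-highest for Rbm24. The ratio of Rbm20 to Rbm24 counts ran from 0.968 in M5F56 to 1.34 in M5F5, with a median of 1.19.

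Mbnl1, the main muscleblind gene of adult heart and skeletal muscle splicing, was nearly level in 7 libraries and lower in 1. It was at 278 CPM in M5F7, 273 in M5F12 and M5F5, 270 in M5F22, 266 in M5F55, 265 in M5F16 and 258 in M5F56, but at 221 CPM in M5F19. The step from M5F56 down to M5F19 was 1.16-fold, and it was the only place in the order where neighbouring intervals did not overlap. The fold between extremes was 1.26 with M5F19 and 1.08 without it, and after setting aside both extremes 98.6% of genes tested had a wider range than Mbnl1.

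Mbnl2, its paralog, had the narrowest range of the members, 1.17-fold (adjusted p = 1.5e-06 by the chi-square test). Its highest value was 190 CPM in M5F56, and its lowest was 163 CPM in M5F19. The other 6 libraries lay between 169 and 181 CPM, and no neighbouring intervals were apart. M5F19 was therefore the lowest library of both muscleblind genes. With plain total counts in place of the scaled totals the range of Mbnl2 was 1.27-fold, and no longer the narrowest. Rbm20 then spanned 1.18-fold, Qki 1.19 and Rbm24 1.26. Without M5F19, Mbnl1 spanned 1.08-fold and Mbnl2 1.13.

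Celf1, which opposes muscleblind proteins at shared exons and also promotes decay of its targets, spanned 1.40-fold (adjusted p = 1.0e-55 by the chi-square test). Its levels were 178 CPM in M5F19, 178 in M5F16, 173 in M5F22, 163 in M5F12 and 155 in M5F56, against 136 in M5F55, 133 in M5F5 and 127 in M5F7. The intervals of M5F56 and M5F55 did not overlap, a step of 1.14-fold that set M5F55, M5F5 and M5F7 below the other 5 libraries. The ratio of Mbnl1 to Celf1 counts, read here only between libraries, was 2.18 in M5F7, 2.05 in M5F5 and 1.95 in M5F55. It was 1.68 in M5F12, 1.67 in M5F56, 1.56 in M5F22, 1.49 in M5F16 and 1.245 in M5F19. This ratio moved 1.75-fold between libraries. That it moved more than either gene alone follows from their opposite extremes in M5F7 and M5F19. Ratios of member counts were computed after their values had been seen and were not tested.

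The Rbfox genes were the most variable members. Rbfox2, which shapes cardiac splicing in mouse, spanned 1.90-fold, just short of the 2-fold limit (adjusted p = 2.5e-16 by the chi-square test), and 17.3% of genes tested had a wider range. It was at 20.1 CPM in M5F19, 18.8 in M5F12, 18.4 in M5F22, 16.4 in M5F56 and 15.5 in M5F16, but at 11.8 in M5F55, 11.2 in M5F5 and 10.6 in M5F7. The last 3 libraries were again the lowest, as for Celf1, although the lower bound of M5F16, 13.6 CPM, still reached under the upper bound of M5F55, 13.7.

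Rbfox1, the paralog best known from neurons and striated muscle, was scarce, with 8 to 49 counts per library and 235 in all. Its mean count of 29.4 lay under the limit of 50, so it was not tested with the others. It was at 3.35 CPM in M5F19, 2.87 in M5F22, 2.22 in M5F55, 2.12 in M5F16, 2.08 in M5F12, 1.61 in M5F56, 1.36 in M5F5 and 0.548 in M5F7. Adjacent intervals overlapped everywhere, but that of M5F7 (0.237 to 1.08 CPM) lay below that of M5F19 (2.48 to 4.42 CPM), and these 2 levels were 6.10-fold apart. After the extremes were set aside the fold was 2.11. With no count filter Rbfox1 passed both limits, with an adjusted p of 7.9e-06 by the chi-square test over 16958 genes. At that setting, 3846 of the 16958 genes passed both limits.

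Qki, whose loss disrupts sarcomere transcripts in mouse and human heart cells, spanned 1.23-fold (adjusted p = 2.8e-25 by the chi-square test). M5F19 held 316 CPM, followed by 296 in M5F22, 292 in M5F16, 278 in M5F12, 274 in M5F55, 271 in M5F56, 263 in M5F5 and 257 in M5F7. Only M5F19 stood clear of its neighbour. Ptbp1, the repressor of muscle exons, ran the other way over a 1.41-fold range (adjusted p = 3.8e-10 by the chi-square test). It was at 53.1 CPM in M5F7, 48.8 in M5F5, 46.3 in M5F55, 46.0 in M5F56, 41.9 in M5F12, 40.8 in M5F22, 40.5 in M5F16 and 37.6 in M5F19. No adjacent intervals of Ptbp1 were apart, while those of M5F7 and M5F19 were.

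**Figure D2:**
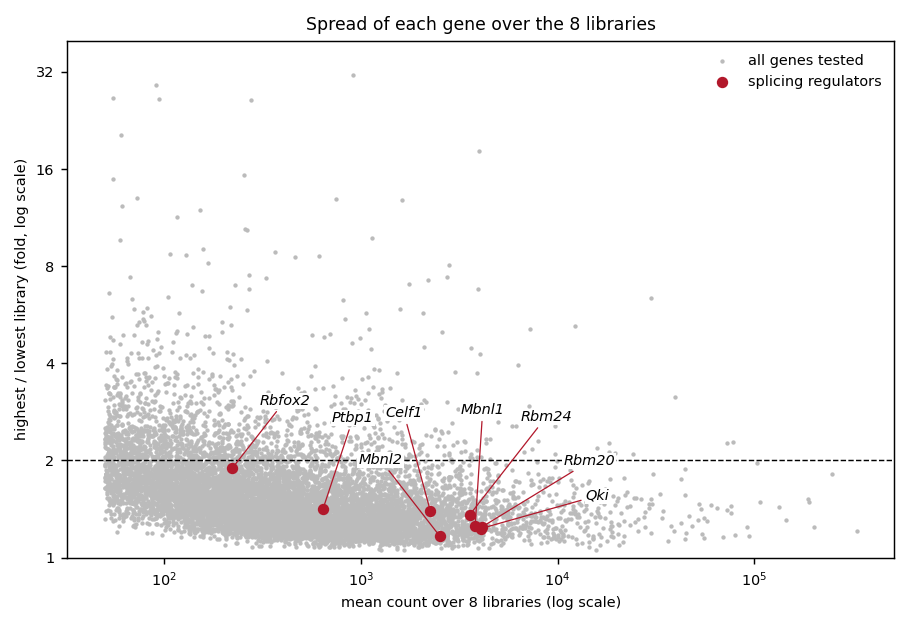
Fold between the highest and the lowest library (vertical axis, log scale) against the mean count over the 8 libraries (horizontal axis, log scale) for the 10909 genes tested (grey) and the 8 tested splicing regulators (red). All 8 lie under the dashed 2-fold line, with Rbfox2 nearest to it at 1.90-fold.

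Seen together, the members differed in which libraries were high. Celf1, Rbfox1, Rbfox2 and Qki all had their highest value in M5F19 and their lowest in M5F7. Mbnl1 and Ptbp1 had the reverse. For Celf1 the highest place was a near tie, at 177.8 CPM in M5F19 and 177.5 in M5F16, with overlapping intervals. Over all genes tested, 4.81% had the first pair of extremes and 3.73% the second. Rbm20, Rbm24 and Mbnl2 had neither. M5F19 held the highest value of 5 members and the lowest of 3, so it was extreme in 8 of the 9, while M5F5, M5F16 and M5F55 held no extreme value of any member.

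**Figure D3:**
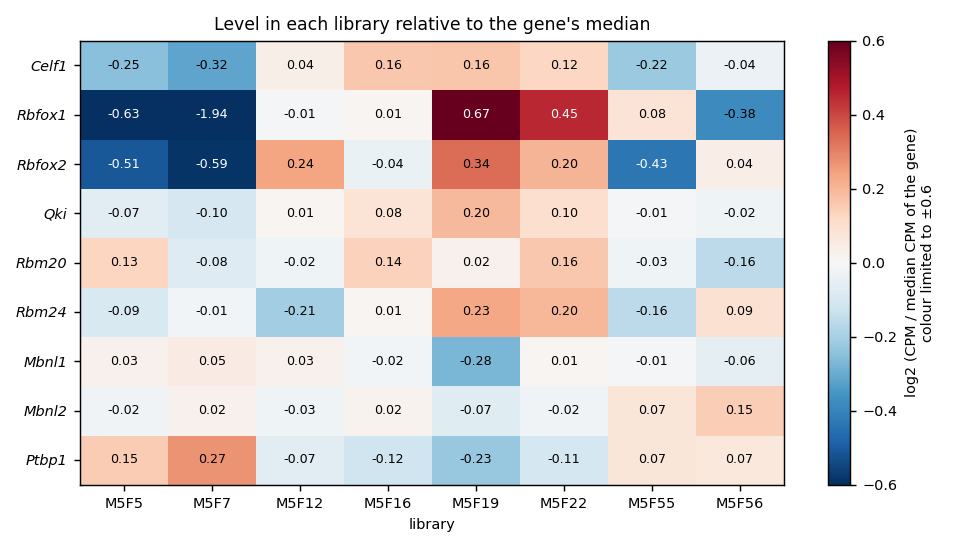
Level of each member (rows) in each library (columns) as log2 of the ratio to the median of that gene, with colour limited to 0.6 in either direction and the value printed in each cell. The rows of Celf1, Rbfox1, Rbfox2 and Qki are red in M5F19 and blue in M5F7, and the row of Ptbp1 is the reverse.

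Relations were tested for 8 pairs of genes on log2 CPM over the 8 libraries. They were paralogs, antagonists, Rbm20 with transcripts it splices, and other pairs of regulators. Qki and Ptbp1 ran opposite to each other. Pearson's r was -0.96 (exact two-sided permutation p = 0.000298, adjusted p = 0.00238 over the 8 relations), and Spearman's rho was -0.95 (exact permutation p = 0.00114, adjusted p = 0.00913). Without M5F7 and M5F19, the libraries farthest from the Qki median, r was -0.94. Adjusted p-values of r stayed between 0.00238 and 0.0373 under the 11 alternatives tried, but those of rho rose to 0.0857 with plain total counts. They were 0.054 in each case without M5F5, M5F7, M5F12 or M5F19. As background, 11 of the 10908 other genes tested (0.101%) had an r with Qki as low as or lower than that of Ptbp1, counting Ptbp1 itself. Strong relations were common, however: 5.25% of other genes had an r of -0.9 or lower with Ptbp1, 1.60% one of at least 0.9 with it, and 2.57% one of at least 0.9 with Qki. The labels and the table give no batch, so no value within batches could be had. Genotype is unknown too, and the permutation takes all 8 libraries as exchangeable. A relation across animals cannot here be told apart from a difference between genotypes.

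The relation of the paralogs Rbfox1 and Rbfox2 was positive but did not pass the adjustment. Pearson's r was 0.75 (exact permutation p = 0.013, adjusted p = 0.0522) and Spearman's rho 0.71 (exact permutation p = 0.0576, adjusted p = 0.222). Without M5F7 and M5F19 r was 0.53, so the relation leaned on those libraries, where Rbfox1 rests on 8 and 49 counts. The adjusted p of r was 0.0492 with DESeq2 size factors and 0.0214 without M5F56, and it lay between 0.0214 and 0.418 over the 9 alternatives that gave a value. Mbnl1 and its antagonist Celf1 had r = -0.52 (exact permutation p = 0.161, adjusted p = 0.429) and rho = -0.67 (exact permutation p = 0.0831, adjusted p = 0.222), with r = -0.50 without M5F19 and M5F56.

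Neither relation of Rbm20 with the whole-gene level of a transcript it splices passed the test. Ttn, the giant elastic protein of the sarcomere, was at 7526 CPM in M5F7, 7432 in M5F5, 7158 in M5F55, 5249 in M5F56, 4663 in M5F16, 4052 in M5F12, 3620 in M5F19 and 3301 in M5F22. The relation of Rbm20 with Ttn had r = -0.31 (exact permutation p = 0.441, adjusted p = 0.512) and rho = -0.55 (exact permutation p = 0.171, adjusted p = 0.315), with r = -0.12 without M5F22 and M5F56. Without M5F5 r was -0.58 and rho -0.79, and r was -0.17 without M5F7 and -0.055 without M5F22. M5F5 and M5F7 were both high in Ttn, yet M5F5 was among the 3 highest libraries of Rbm20 and M5F7 was the second-lowest.

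Camk2d, a calcium-dependent kinase whose exons Rbm20 also selects, was at 152 CPM in M5F22, 129 in M5F19, 126 in M5F16, 118 in M5F12, 100 in M5F56, 94.0 in M5F55, 76.7 in M5F7 and 73.8 in M5F5. With Rbm20 it had r = 0.36 (exact permutation p = 0.365, adjusted p = 0.512) and rho = 0.52 (exact permutation p = 0.197, adjusted p = 0.315), and r = 0.15 without M5F22 and M5F56. Single libraries moved it: r was 0.76 and rho 0.86 without M5F5 (adjusted p = 0.132 and 0.0952 by exact permutation), and r was 0.23 without M5F7 and 0.11 without M5F22. M5F5 was the lowest library of Camk2d and the third-highest of Rbm20.

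The other 3 pairs also failed the adjustment. Rbm20 with Rbm24 had r = 0.18 (exact permutation p = 0.66, adjusted p = 0.66) and rho = 0.26 (exact permutation p = 0.536, adjusted p = 0.613), and r = 0.18 without M5F22 and M5F56. Rbm20 with Rbfox1 had r = 0.39 (exact permutation p = 0.355, adjusted p = 0.512) and rho = 0.48 (exact permutation p = 0.243, adjusted p = 0.324), and r = 0.33 without the same 2 libraries, or 0.20 without M5F7 alone. Mbnl1 with Mbnl2 had r = 0.28 (exact permutation p = 0.448, adjusted p = 0.512) and rho = -0.048 (exact permutation p = 0.935, adjusted p = 0.935). For this pair, r turned to -0.45 without M5F19 and M5F56, the lowest and the highest library of Mbnl2.

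**Figure D4:**
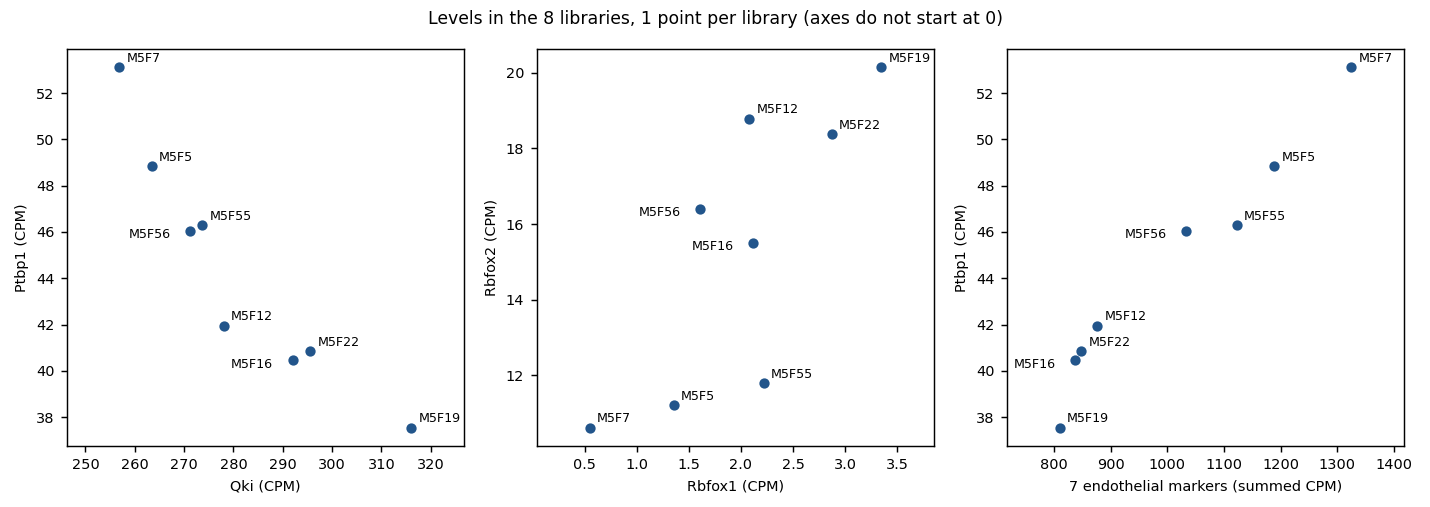
Levels in the 8 libraries, 1 point per library, for Qki and Ptbp1 (left), Rbfox1 and Rbfox2 (middle), and the summed level of 7 endothelial markers and Ptbp1 (right), all in TMM-scaled CPM on axes that do not start at 0. Ptbp1 falls as Qki rises (r = -0.96), and Ptbp1 and the endothelial sum place the 8 libraries in one order.

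The summed level of 7 endothelial markers ordered the libraries as some of these genes did. This sum was 1325 CPM in M5F7, 1188 in M5F5, 1122 in M5F55, 1033 in M5F56, 876 in M5F12, 848 in M5F22, 838 in M5F16 and 810 in M5F19. This order of the 8 libraries was that of Ptbp1 at all 8 places, and the reverse of that of Celf1 at all 8. Qki took the reverse place in 4 libraries and Rbfox2 in 5. Some places were near ties: Celf1 was at 177.8 CPM in M5F19 and 177.5 in M5F16, and no adjacent intervals of Ptbp1 were apart. All orders were taken with TMM scaling only. None of the 7 markers was at 0 in any library, M5F7 was the highest library of 5 of them, and M5F19 was the lowest of 3. Single markers mostly did not keep the order of the sum. Egfl7 shared 8 places with Ptbp1, Tie1 5, Cdh5 4, Tek 2, Kdr and Pecam1 1 each, and Emcn 0. These orders were noticed after the values had been seen, and the part of endothelial RNA in the results on Ptbp1, Celf1, Qki and Rbfox2 was not tested. In bulk tissue, fewer cells of a type and less RNA per cell cannot be told apart.

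No other marker sum shared, or reversed, more than 4 of the 8 places of any member. The cardiomyocyte sum was highest in M5F7 and lowest in M5F12, and shared 3 of 8 places with Ptbp1. The sum of 7 fibroblast markers ran from 1032 CPM in M5F55 to 1268 in M5F7, and that of 7 smooth muscle and pericyte markers from 1173 in M5F16 to 1661 in M5F7. The 7 macrophage markers summed to 65.4 CPM in M5F5 and 127 in M5F12, and the 7 Schwann cell and neuron markers to 15.4 in M5F19 and 27.8 in M5F7. The first principal component named above also had M5F7, M5F5, M5F55 and M5F56 in the first 4 places and M5F19 in the last, as Ptbp1 did. Among the 10908 other genes tested, 29 had the exact reverse of the Ptbp1 order and 2 had the same order, Celf1 and Egfl7 among them.

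Relatives and partners of the regulators were examined as a list of 17 genes, of which 11 passed the count filter. All 11 differed beyond counting error, and only Mbnl3 also reached 2-fold. Over all genes tested, 86.4% differed beyond counting error and 13.9% also reached 2-fold. The counts of this list, and of the lists that follow, were not tested against these shares. Mbnl3, the muscleblind gene of proliferating muscle precursors, ran from 3.55 CPM in M5F19 to 7.54 in M5F7 (2.12-fold; adjusted p = 4.1e-05 by the chi-square test). The median fold of the list was 1.44, close to that of all genes tested.

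Rbpms, an RNA-binding protein of cardiac and smooth muscle splicing, kept within 163 to 185 CPM (1.14-fold). Rbm38, the closest relative of Rbm24, ran from 79.9 CPM in M5F55 to 124 in M5F19, the library in which Rbm24 was also highest. Raver2, a partner of Ptbp1, lay between 38.9 CPM (M5F7) and 56.1 (M5F22), and Khdrbs3, a STAR-family relative of Qki, between 27.5 CPM (M5F7) and 40.9 (M5F22). Both were thus lowest in M5F7, where Qki was lowest and Ptbp1 highest, but so were 18.1% of all genes tested. Khdrbs1, another STAR protein, went the other way, from 57.8 CPM in M5F19 to 77.3 in M5F7. Raver1, from the same list, also peaked in M5F7, as Ptbp1 did, and unlike Raver2. Its range was 24.0 CPM (M5F22) to 30.6 (M5F7), and it is named here after its values had been seen.

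The remaining paralogs are named here after their values had been seen. Celf2 ran from 33.0 CPM in M5F7 to 46.1 in M5F12, and so shared its lowest library with Celf1. Ptbp3 ran from 46.6 CPM in M5F19 to 75.5 in M5F7, the extremes of Ptbp1. The neuronal paralog Ptbp2 was also lowest in M5F19, at 19.1 CPM, but highest in M5F56, at 24.7. Of the relatives known from neurons, Rbfox3 had at most 7 counts in a library, Celf3 at most 2 and Celf4 at most 6. Celf5 had at most 21 and, unlike Celf1 and Celf2, was not lowest in M5F7. It was at 1.44 CPM there, 1.36 in M5F5 and 1.26 in M5F56, too close to order at such counts. Celf6 and Khdrbs2 were at 0 in all 8 libraries.

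SR proteins, which mark exons for the spliceosome, and their kinases numbered 18 in the table of 19 listed. Of these, 17 differed beyond counting error and none reached 2-fold, with a median fold of 1.43. M5F7 held the highest value of 9 of the 18 and M5F19 the lowest of 7, beside 17.7% and 14.98% of all genes tested. Clk4, a kinase of SR proteins, ran from 64.3 CPM in M5F19 to 118 in M5F7 (1.84-fold), and Srsf5 from 68.9 to 118 CPM in the same libraries. Srsf9 ran from 10.3 CPM in M5F55 to 17.95 in M5F7, and Srsf3 from 91.0 CPM in M5F22 to 131 in M5F7. Clk1 kept within 83.4 to 111 CPM.

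The hnRNP proteins, abundant packaging and splicing factors, had the lowest median fold of these 5 lists. All 18 in the table differed beyond counting error and none reached 2-fold; that median was 1.21. Hnrnpa2b1 ran from 639 CPM in M5F12 to 740 in M5F7, Hnrnpu from 260 in M5F19 to 297 in M5F56, and Hnrnpk from 272 in M5F7 to 319 in M5F56. The most variable by the range without extremes were Hnrnpr, Hnrnph2 and Hnrnpd. Hnrnph2 and Hnrnpr were lowest in M5F7, at 72.0 and 55.03 CPM, and highest at 104 CPM in M5F19 and 72.3 in M5F22. Hnrnpd was lowest in M5F19, at 54.8 CPM, and highest in M5F56, at 76.2.

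Core spliceosome genes had a median fold of 1.29, and 16 of the 17 tested differed beyond counting error with none at 2-fold. Snrnp70, a protein of the U1 particle, ran from 85.5 CPM in M5F19 to 140 in M5F5, Snrpc, another U1 protein, from 13.1 in M5F12 to 21.4 in M5F5, and the Sm protein gene Snrpd2 from 31.7 in M5F12 to 48.1 in M5F7. Sf3b1, the branch-site factor, ran from 189 CPM in M5F56 to 246 in M5F7. Sf1 ran from 110 to 146 CPM between the same libraries, and Prpf19 from 155 in M5F7 to 200.1 in M5F12.

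Transcripts known to be spliced under Rbm20 formed a list of 12, all tested. Of these, 11 differed beyond counting error, and Ttn (2.28-fold) and Camk2d (2.05-fold) reached 2-fold as well. The median fold of the list was 1.42. Ryr2, through which the sarcoplasmic reticulum releases calcium, lay between 1128 CPM (M5F5) and 1636 (M5F19), and Ldb3, a Z-disc protein, from 2057 in M5F56 to 2728 in M5F19. Of the 12, 5 were lowest in M5F5 and 3 in M5F56, beside 13.3% and 11.2% of all genes tested. Trdn, the anchor protein triadin, was the one that did not pass (adjusted p = 0.767 by the chi-square test), at 7.93 to 9.87 CPM. Its mean count, 130, was the lowest of the 12, so the test had less power for it.

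**Figure D5:**
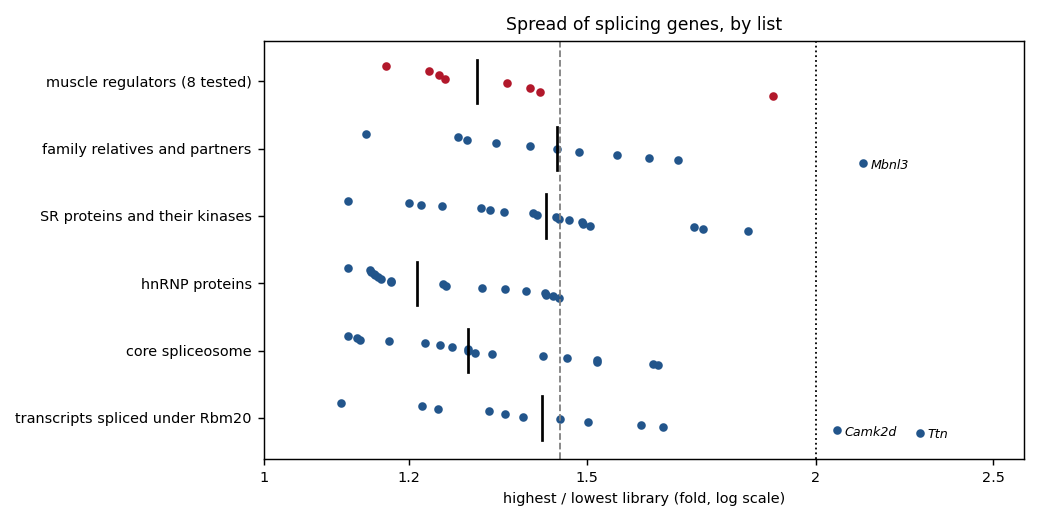
Fold between the highest and the lowest library (horizontal axis, log scale) for each tested gene of the splicing regulators (red) and of 5 further lists (blue), with a black bar at the median of each list. The dashed line marks the median of all genes tested, 1.45, and the dotted line 2-fold; only Mbnl3, Camk2d and Ttn lie past it.

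Genes whose levels followed a member most closely were picked by Pearson's r of log2 CPM among 10020 named genes past the count filter, over the 8 libraries. Because they were picked for the highest r, these values are a description and carry no test. Closest to Rbm20 was Snrnp200, a helicase of the spliceosome that belongs to the core list (r = 0.98), at 103 CPM in M5F56 to 117 in M5F16. Copb2 and Tfip11 came next for Rbm20 (both r = 0.94), and Tfip11 acts in spliceosome disassembly. Closest to Rbm24 were the kinase gene Map3k7 (r = 0.96), the orphan receptor gene Nr4a3 (r = 0.95) and Myadml2 (r = 0.95). Nr4a3 ran over a far wider range than Rbm24, from 2.85 CPM in M5F55 to 10.7 in M5F19.

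Celf1 was followed most closely by Nebl (r = 0.99), which encodes the cardiac Z-disc protein nebulette, from 1054 CPM in M5F7 to 1854 in M5F16. Fyttd1, an mRNA export adaptor, and Atm, a DNA damage kinase, also had r = 0.99 with Celf1. The share of other genes tested with an r of at least 0.9 was 4.86% for Celf1, 2.57% for Qki, 2.04% for Rbfox2, 1.60% for Ptbp1 and 1.31% for Rbfox1. It was 0.238% for Mbnl1, 0.156% for Rbm20, 0.147% for Mbnl2 and 0.119% for Rbm24.

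Rbfox1 was followed by Rgs6, a regulator of G protein signalling (r = 0.99), then by Btbd9 (r = 0.98) and Tssk6 (r = 0.97). Rbfox2 was followed by the kinase gene Pak2 (r = 0.99), by Atp6v1a of the vacuolar proton pump (r = 0.99) and by Diexf (r = 0.98). For Qki the closest were Tmed4, Wfs1 and Twsg1 (all r = 0.98), and all 3 were highest in M5F19. Wfs1 encodes wolframin of the endoplasmic reticulum, and Twsg1 a modulator of BMP signalling. Ptbp1 was followed by Setd6 (r = 0.99), Pgls (r = 0.98) and Ppp1r16a (r = 0.98), all lowest in M5F19. For Mbnl1 the highest r was that of Cenpq, Frat1 and Frat2 (all 0.95), which were also lowest in M5F19, but their rho was 0.60, 0.57 and 0.79. Mbnl2 was followed by Alkbh3 and Zbtb33 (both r = 0.95) and Rundc3b (r = 0.94).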

How the data were processed

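The authors deposited 1 table of counts, whole numbers per gene for 8 heart libraries of polyA RNA, taken here as not normalized. The tools listed in the submitters' processing notes, with no role given, were RSEM, HISAT2 2.0.4 and Bowtie2 2.2.5. No source used here gives the genome build, annotation, strandedness or rounding of RSEM estimates, and paralogs such as Mbnl1 and Mbnl2 may share reads. The labels put no library in a group. Of 4675 identifiers beginning with LOC, 543 took a symbol from RefSeq's gene table (assembly BCM_Maur_2.0), among them Trdn and Snrpc where the symbol was otherwise lacking. Srsf6 and Hnrnpab were not analysed here.

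Counts were scaled by TMM (edgeR 4.0.16, R 4.3.3), with 0.5 as prior count on the log2 scale. Every gene averaging 50 counts or more was tested by chi-square over the 8 libraries with Benjamini-Hochberg adjustment over all of them, and counted where the adjusted p was under 0.05 and the fold at least 2. The method was tested on simulated data. Relations used exact two-sided permutation of the 8 libraries. A relation was left out where either gene split the libraries into separate clusters (a gap over 0.5 of its range, with 2 or more libraries beyond each edge). Alternatives were DESeq2 1.42.0 size factors, total counts, a prior count of 5, no filter, a mean count of at least 500, and leaving out each library. A count of 3, the limit that 0 counts allow, was 0.199 to 0.214 CPM.

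Named genes are the members, the 3 most abundant and the 3 with the widest range without extremes of each list, the 3 genes most like each member, and the genes of the relations; rows named by a date were left out. Marker genes so chosen are given as sums, except that the order of all 7 endothelial markers is given, a choice made after their values were seen. The members, lists and relations were chosen with earlier results of these data known.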

Additional observations from a re-analysis of the deposited data

How the results depend on the processing

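The number of genes reaching 2-fold was 3846 of 16958 with no count filter, in place of 1519 of 10909. It was 324 with a mean count of at least 500, among fewer genes tested, and 1195 to 1452 on leaving out a library. The number of splicing regulators reaching 2-fold was 0 except with no filter, where it was 1, Rbfox1. The relation of Qki with Ptbp1 kept its direction throughout. Its rho no longer passed with total counts (-0.86) and on leaving out M5F5, M5F7, M5F12 or M5F19. It still passed without M5F16, M5F22, M5F55 or M5F56 (adjusted p from 0.0167 to 0.0222 by exact permutation). Over the libraries left out, this rho ran from -0.96 to -0.93. The relation of Rbfox1 with Rbfox2 passed with DESeq2 size factors (r = 0.76) and without M5F56, with r from 0.66 to 0.78 on leaving out a library. Relations that had not passed changed sign under some settings, and the cause was not tested. For Mbnl1 with Mbnl2, rho was 0.43 with total counts, and leaving out a library gave r from -0.79 to 0.57 and rho from -0.57 to 0.18. For Rbm20 with Rbm24, r was -0.089 and rho -0.24 with total counts, and r ran from -0.082 to 0.41 on leaving out a library. No value was given for Rbfox1 with Rbfox2 without M5F16 or M5F55, nor for Rbm20 with Ttn and Mbnl1 with Celf1 without M5F56, since the values then fell into separate clusters. No paired analysis was possible because the labels give no groups and no replicate numbers. Depth limits Rbfox1, with 8 to 49 counts, more than the other members, which had at least 155 counts in every library.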
